A study of Homo sapiens with 4 samples.

Results

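The 10 Krüppel-like factor (KLF) genes described here were *KLF2*, *KLF3*, *KLF4*, *KLF5*, *KLF6*, *KLF7*, *KLF9*, *KLF10*, *KLF11* and *KLF13*. The choice was by name, with earlier results of these data known. The genes were 10 of the 27274 gene names on an Agilent 1-colour expression array, and their 11 probes filled 20 of its 43118 gene spots. Total RNA came from LNCaP and PC3 cells, both established human prostate cancer cell lines. Each line was hybridised once without treatment and once after 24 h with 10 µM atorvastatin (ATO), a statin that blocks HMG-CoA reductase, giving 4 groups of 1 array each, called control and ATO of each line. RNA was of whole cultures, so a change in every cell and one in a part of the cells cannot be told apart. The labels call the controls untreated and do not say whether they received the drug's solvent, so every ratio of ATO over control may include it. The study compared the response of the lines to the drug. With 1 array a group, no difference within a line has a replicate check, and array and condition cannot be told apart.

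KLFs are transcription factors with 3 zinc fingers at the carboxyl end that bind GC-rich and CACCC-type DNA. They differ in the rest of the protein: KLF2, KLF4, KLF5, KLF6 and KLF7 are mostly activators, KLF3 recruits the corepressor CtBP, and KLF9, KLF10, KLF11 and KLF13 recruit the corepressor Sin3A. KLF2 and KLF4 are best known from endothelium, where flow and statins induce them through the MEK5-ERK5-MEF2 kinase pathway. In prostate epithelium KLF5 and KLF6 are studied for their part in proliferation and tumour growth.

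The marker genes of the lines were as labelled. *KLK3* and *TMPRSS2* were well above background in both LNCaP arrays, and in the PC3 arrays *KLK3* was not and *TMPRSS2* was, at lower signal, while *CAV1* and *CD44* were well above background in the PC3 arrays only. *VIM* was well above background on all 4 arrays, at 65.3 and 138 in LNCaP and 11670 and 12710 in PC3. Between 48.5% and 52.9% of gene spots were well above background on each array, and none was saturated. Local background was uneven on 3 arrays: bright surroundings held 0.0742% and 12.4% of gene spots in LNCaP without and with ATO, and 6.96% and 13.8% in PC3. Of the members, 8 were well above background on all 4 arrays, *KLF9* on the LNCaP arrays and *KLF7* on the PC3 ATO array.

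Signals are processed intensities in the units of the scanner. Ratios are differences of log2 signal after each array was set to its own 75th percentile, so a ratio of 0 means an equal place relative to that percentile. The ± value is a technical SD, taken from probes printed many times on the same arrays at similar brightness. It is a spread within an array and does not cover differences between cultures, between labellings or between arrays. For *KLF2* it is the spread of single spots, although the signal is a mean over spots. A gene was called after ATO at a change of at least 1.5-fold, a log2 ratio of 0.585. *KLF6* has a pair of probes and the brighter gives its ratio. Signals of different probes cannot be set against each other, so the members are not ordered by level.

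**Figure D1:**
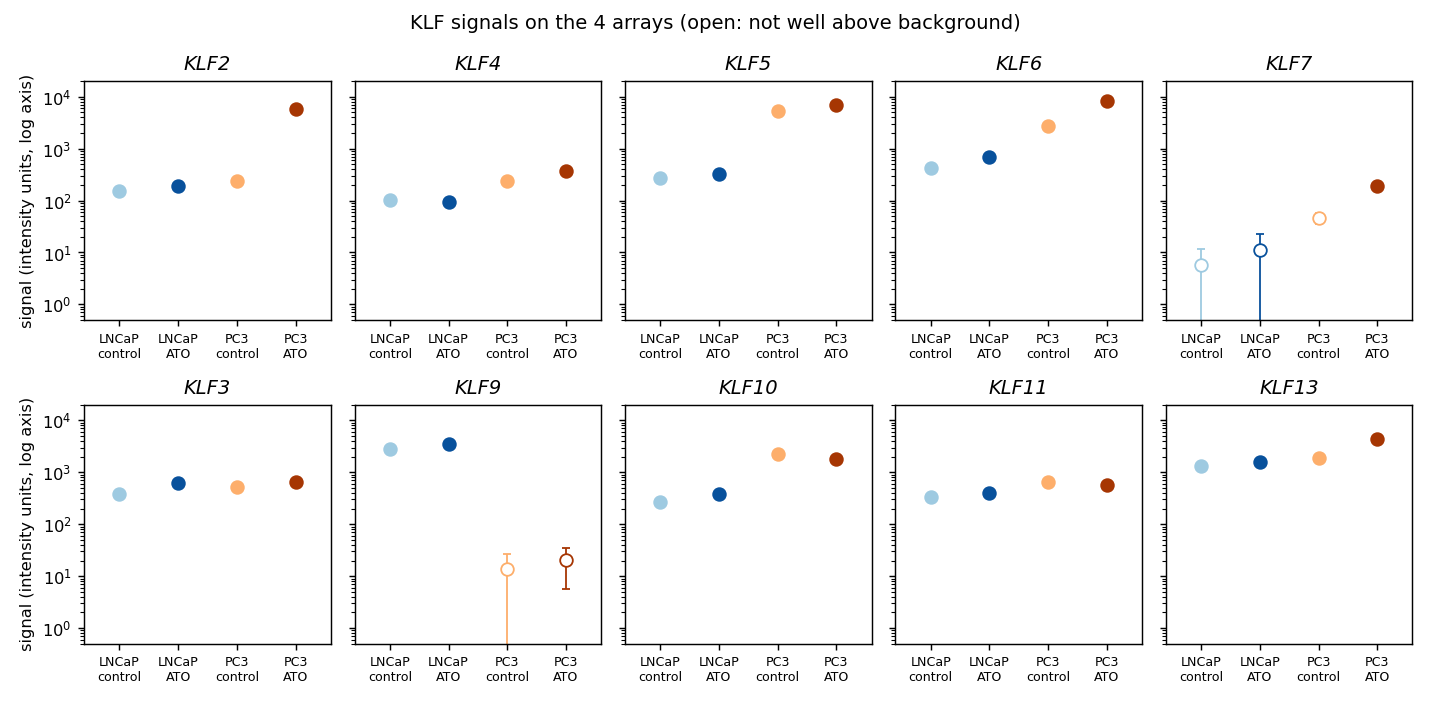
Signal of each KLF gene (1 panel a gene, brighter probe of *KLF6*) on the 4 arrays in intensity units on a log axis; filled circles were well above background, open circles were not, and bars are the error estimate of the scanner software, which runs off the axis for the dimmest values and is smaller than the symbol for bright ones. *KLF2* stands at 151.5 to 235 on 3 arrays and at 5821 in PC3 ATO, and *KLF9* is at 2791 and 3517 in LNCaP and not above background in PC3.

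*KLF2* changed most. After ATO its signal was 25.6-fold higher in PC3 cells, the highest ratio among 12513 genes that both PC3 arrays measured well above background, against 1.16-fold in LNCaP cells. The upstream sequence of *KLF2* is shown because of that change and because the factors that act on it in endothelium bind close to the gene. It is the 250 bases before the RefSeq transcription start (GRCh38.p14, chr19:16324576-16324825, plus strand), read 5′ to 3′, and the capitals mark a match to the MEF2 consensus.
KLF2: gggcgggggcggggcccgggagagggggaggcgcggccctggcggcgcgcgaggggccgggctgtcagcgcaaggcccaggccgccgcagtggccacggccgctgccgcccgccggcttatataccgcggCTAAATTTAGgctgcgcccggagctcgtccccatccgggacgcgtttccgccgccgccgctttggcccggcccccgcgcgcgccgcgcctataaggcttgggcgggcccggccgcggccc
The match lies 120 to 111 bases before the start, and reads the same on both strands. This motif was looked for after the sequence had been seen, and 2.8% of the 35116 promoters in the RefSeq table hold it in the same 250 bases. The MEF2 core letters CTATTTAT were not in this window on either strand. Neither were the KLF box CACCC, the NF-Y box with the letters CCAAT, the TATA box searched as TATAAA, or the CArG box. The SP and KLF box GGCGGG was found in 4 places. The search covered 8 members, without *KLF3* and *KLF10*. Of these 8, 7 had GGCGGG in at least 1 of their upstream windows (8 of 13 windows, against 42.5% of all promoters). CACCC was found in 4 (6 of 13 windows, against 54.7%) and CCAAT in 5 (6 of 13 windows, against 32.0%). *KLF2* alone among these 8 had the MEF2 match and *KLF7* alone had a CArG box, which 1.16% of all promoters hold. A match describes the letters and was not tested as a site.

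The *KLF2* probe (hg18, chr19:16299246-16299305) was printed 10 times on each array. Its mean signal was 151.5 without and 188.5 with ATO in LNCaP cells, and 235 without and 5821 with ATO in PC3 cells, over the 10, 9, 8 and 7 spots without an outlier call. The lowest of the usable spots in PC3 ATO was 5524 and the highest in PC3 control was 254, so the PC3 groups of spots did not overlap. In LNCaP the spots ran from 129.8 to 170.5 in control and from 149.4 to 206.1 after ATO, and those ranges overlapped. The log2 ratio was 4.68 ± 0.15 in PC3 and 0.22 ± 0.20 in LNCaP. In PC3 ATO 4 of the 10 spots lay in a bright local background. Without such spots, an alternative chosen after seeing the data, the ratio was 4.72 in PC3 from 8 and 4 spots and 0.26 in LNCaP from 10 and 8 spots.

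**Figure D2:**
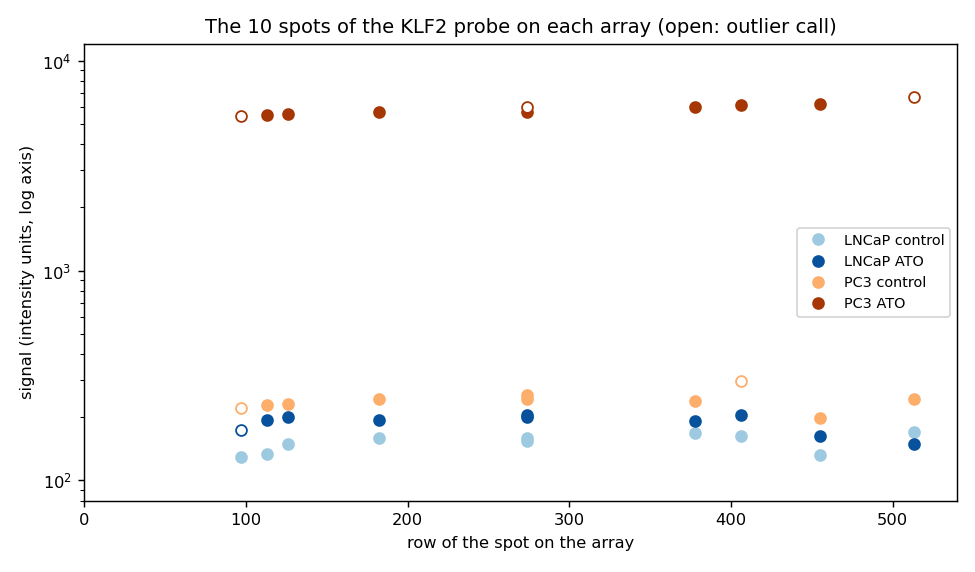
Signal of the 10 spots of the *KLF2* probe on each array (intensity units, log axis) against the row of the array on which each spot lies; colours are the 4 arrays and open circles carry an outlier call. The PC3 ATO spots lie between 5423 and 6673 over the whole height of the array and the spots of the other arrays between 129.8 and 297.

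*KLF4* encodes a factor that shares endothelial roles with KLF2 and is one of the reprogramming factors. Its signal was 100.2 without and 92.4 with ATO in LNCaP cells, and 239 without and 363 with ATO in PC3 cells. It was therefore dimmer in both LNCaP arrays than in either PC3 array. It rose in PC3 by a log2 ratio of 0.65 ± 0.17 (1.57-fold), close to the limit, and its LNCaP ratio was -0.22 ± 0.26. The PC3 ratio was -0.095 when arrays were set to their spike-in probes, which read control RNA added to each sample, a scaling under which the median of all genes moved to -0.75. With normexp, a model-based background correction, the PC3 ratio was 0.51, also short of the limit.

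*KLF5*, an activator of epithelial progenitors and of proliferation, had signals of 266 without and 322 with ATO in LNCaP cells, and 5361 without and 6796 with ATO in PC3 cells. The lines were far apart and ATO moved neither past the limit, with log2 ratios of 0.39 ± 0.11 in PC3 and 0.17 ± 0.16 in LNCaP. When the 50th percentile replaced the 75th, the PC3 ratio was 0.585 and counted as past the limit.

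*KLF6*, a zinc finger factor that raises *CDKN1A* and that is studied as a tumour suppressor in prostate, had signals of 421 without and 676 with ATO in LNCaP cells, and 2756 without and 8308 with ATO in PC3 cells by its brighter probe (hg18, chr10:3811387-3811446). ATO was above control in each line. The PC3 log2 ratio was 1.64 ± 0.11 (3.12-fold), rank 41 of 12513. In LNCaP it was 0.58 ± 0.14 (1.498-fold), just under the limit, and rank 206 of 12236. The dimmer probe (hg18, chr10:3817370-3817429) gave 69.6 without and 52.7 with ATO in LNCaP cells, and 72.5 without and 109.2 with ATO in PC3 cells, with the LNCaP ATO and PC3 control values not well above background. By this probe ATO was at least 1.56-fold higher in PC3 and at least 1.36-fold lower in LNCaP, the latter opposite to the brighter probe. Its LNCaP control spot lay in a bright local background, at 153 against an array median of 111. Repeated probes of similar brightness had a log2 SD of 0.19 in LNCaP control and 0.31 in LNCaP ATO. Whether the probes differ in LNCaP was not tested. The dimmer probe straddles the annotated start of *KLF6*: 28 of its 60 bases lie before the RefSeq transcription start and 32 after it. The 250 bases before the start (GRCh38.p14, chr10:3785210-3785459, minus strand) are given to show this, 5′ to 3′, with the 28 bases that belong to the probe in capitals.
KLF6: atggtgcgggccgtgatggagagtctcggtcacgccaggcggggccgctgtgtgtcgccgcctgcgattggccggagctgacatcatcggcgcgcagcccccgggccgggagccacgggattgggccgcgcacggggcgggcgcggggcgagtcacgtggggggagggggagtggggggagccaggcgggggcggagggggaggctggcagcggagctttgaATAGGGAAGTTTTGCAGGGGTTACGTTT

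*KLF7*, an activator known from neurons and adipocytes, was not well above background on 3 arrays. Its signal was 5.75 without and 11.2 with ATO in LNCaP cells, and 46.8 without and 186.5 with ATO in PC3 cells. Only the PC3 ATO array held it well above background. It was at least 3.70-fold higher there than in PC3 control, a bound set by the dimmest probe still well above background, and it has no LNCaP ratio.

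The CtBP-binding repressor *KLF3* had signals of 389 without and 633 with ATO in LNCaP cells, and 529 without and 639 with ATO in PC3 cells. LNCaP control was the lowest of these. Its log2 ratio was 0.60 ± 0.14 (1.52-fold) in LNCaP, just over the limit, and 0.32 ± 0.14 in PC3. The LNCaP ratio fell short of the limit with quantile scaling (0.584) and with spike-in scaling (0.28). The *KLF3* spot is at row 508 of 532, and on the LNCaP ATO array its local background was 223 against an array median of 100.5. The part of that background in the ratio was not tested. The PC3 ratio fell below 0 with normexp, a model-based background correction, and with spike-in scaling.

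Of the Sin3A-binding members, *KLF13* alone passed the limit after ATO. With spike-in scaling its PC3 ratio was 0.54, short of the limit, while *KLF10* (-1.05) and *KLF11* (-0.90) were past it on the lower side, beside an all-gene median of -0.75. *KLF13*, a regulator of the chemokine gene *CCL5* in T cells, had signals of 1315 without and 1601 with ATO in LNCaP cells, and 1898 without and 4464 with ATO in PC3 cells. The PC3 ATO value stood above the other 3. Its log2 ratio was 1.28 ± 0.11 (2.43-fold, rank 104 of 12513) in PC3 and 0.18 ± 0.12 in LNCaP. Its spot in PC3 ATO had a local background of 198 against an array median of 90.0, and the part of that in the ratio was not tested.

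*KLF9*, a factor induced by steroid and thyroid hormones, had signals of 2791 without and 3517 with ATO in LNCaP cells, and 13.5 without and 20.1 with ATO in PC3 cells, both PC3 values not well above background. Its LNCaP log2 ratio was 0.23 ± 0.11, and there is none for PC3. *KLF10*, the TGF-beta inducible early gene, had signals of 271 without and 378 with ATO in LNCaP cells, and 2261 without and 1773 with ATO in PC3 cells. ATO gave a log2 ratio of -0.30 ± 0.11 in PC3 and of 0.38 ± 0.16 in LNCaP. *KLF11*, also TGF-beta inducible, had signals of 328, 399.9, 654 and 568.5 in the same order of arrays. The corresponding ratios were -0.15 ± 0.14 in PC3 and 0.18 ± 0.15 in LNCaP. Neither passed the limit in either line.

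**Figure D3:**
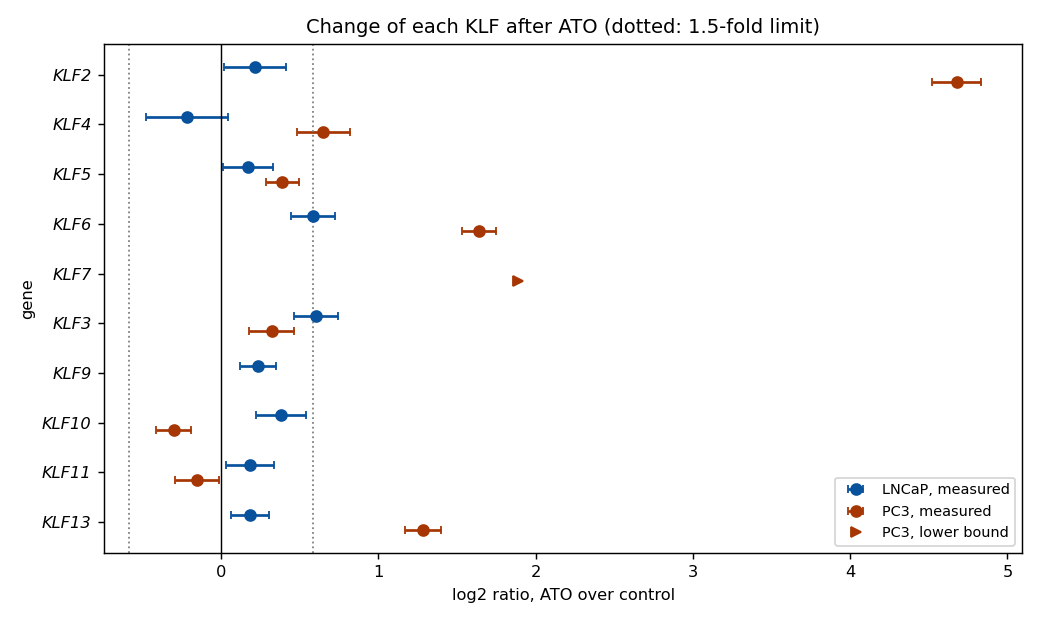
Log2 ratio of ATO over control for each KLF gene in LNCaP (blue) and PC3 (brown); bars are ± 1 technical SD, the triangle is a lower bound and dotted lines mark the 1.5-fold limit. *KLF2* at 4.68, the *KLF7* bound at 1.89, *KLF6* at 1.64, *KLF13* at 1.28 and *KLF4* at 0.65 lie past the limit in PC3 and *KLF3* at 0.60 does in LNCaP. With spike-in scaling *KLF4* (-0.095), *KLF13* (0.54) and *KLF3* in LNCaP (0.28) do not. *KLF4* also falls short with normexp (0.51), and *KLF3* in LNCaP with quantile scaling (0.584).

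In LNCaP cells 1 of the 9 members with a ratio was called higher and 0 lower, where 2.77% of 13739 genes were called higher and 1.99% lower. The median of the 9 ratios was 0.22, beside 0 for all genes. Ratios above 0 were found for 8 of 9, *KLF4* being the exception. When arrays were set to their spike-in probes the median of all genes was -0.30 and 3 of the 9 were above 0, but 8 of 9 again lay above the median of all genes. The all-gene split was 380 higher and 273 lower at the 75th percentile and 242 higher and 1132 lower with spike-in scaling.

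In PC3 cells 5 of the 9 members with a ratio were called higher and 0 lower, where 8.2% of 13815 genes were called higher and 10.3% lower. The median ratio was 0.65, beside -0.006 for all genes. *KLF10* and *KLF11* were the members below 0. The 5 called members were *KLF2*, *KLF4*, *KLF6*, *KLF7* and *KLF13*. *KLF7* was not well above background in PC3 control and has a ratio only through its PC3 ATO signal. With genes well above background on both arrays only, 4 of 8 members were higher and 0 lower. Beside them stood 919 genes higher and 920 lower of 12513. With the 50th percentile the count was 6 higher and 0 lower, beside 2154 genes higher and 910 lower in place of 1133 and 1419. With normexp it was 4 higher and 0 lower, beside 790 genes higher and 913 lower, *KLF4* falling short. With spike-in scaling it was 3 higher and 2 lower, beside 130 genes higher and 9420 lower. Under that scaling *KLF2*, *KLF6* and *KLF7* were higher, *KLF10* and *KLF11* were lower, and 7 of 9 lay above the median of all genes.

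For the 8 members well above background on all 4 arrays, the PC3 ratio minus the LNCaP ratio describes how the responses differed, and it was not tested. It was 4.46 ± 0.25 for *KLF2*, rank 2 of 11016 genes, 1.10 ± 0.17 for *KLF13* (rank 127), 1.06 ± 0.18 for *KLF6* (rank 137) and 0.87 ± 0.31 for *KLF4* (rank 231). It was 0.22 ± 0.19 for *KLF5*, -0.28 ± 0.20 for *KLF3*, -0.34 ± 0.21 for *KLF11* and -0.68 ± 0.19 for *KLF10*. The median of the 8 was 0.54, beside -0.001 for all genes. For *KLF5* the sign changed with spike-in scaling, to -0.21.

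**Figure D4:**
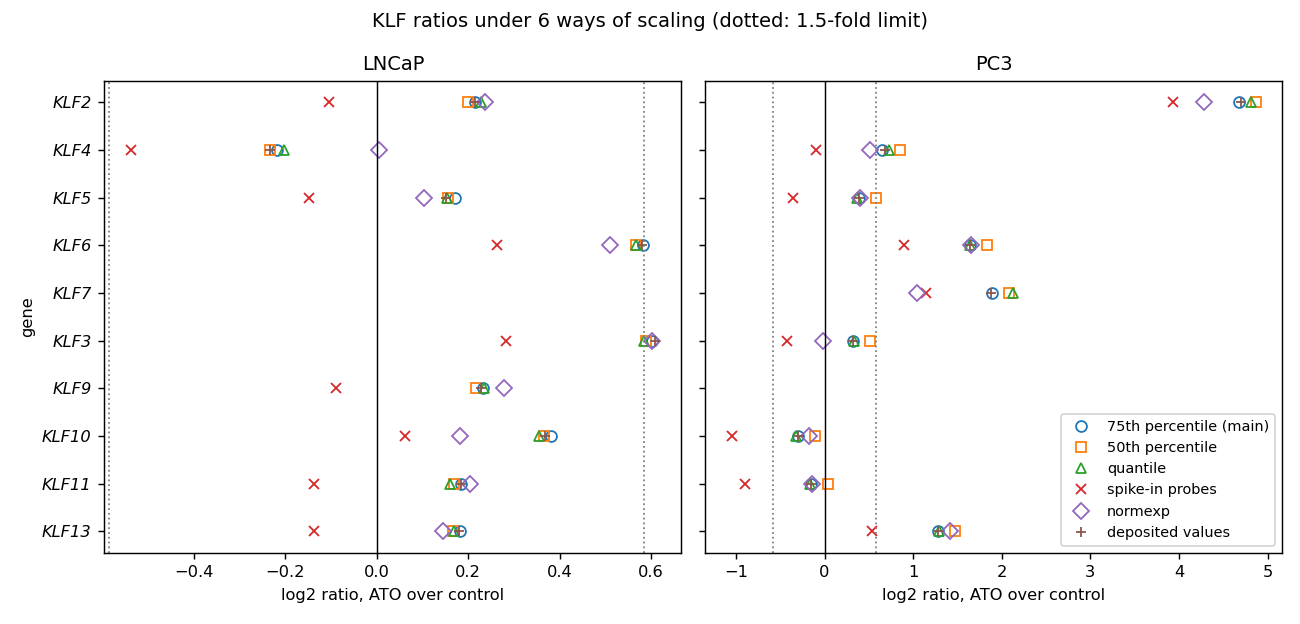
Log2 ratio of ATO over control for each KLF gene in LNCaP (left) and PC3 (right, wider axis) under 6 ways of scaling, with dotted lines at the 1.5-fold limit. *KLF2* in PC3 runs from 3.93 to 4.87, *KLF6* from 0.89 to 1.84 and *KLF13* from 0.54 to 1.48, while spike-in scaling (crosses) lies to the left in both panels.

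A limma fit took the lines as replicates of the treatment, with the line as a covariate and 1 residual degree of freedom. That degree of freedom is the difference between the ratios of the lines. A gene that changed far more in 1 line, as *KLF2* did, therefore gets a large SE, and the fit cannot decide on such a change. Of the 8 members tested, 0 passed an adjusted p of 0.05, as did 0 of 11902 genes (0%), and the smallest adjusted p of any gene was 0.762. Without adjustment the limma p fell below 0.05 for 532 genes (4.47%), among them *KLF6* and *KLF3*. Their mean log2 ratios were 1.11 ± 0.31 and 0.46 ± 0.15 (SE), and that of *KLF2* was 2.45 ± 1.19 (SE), all at an adjusted p of 0.762 by limma.

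Without treatment the lines differed in 5 of the 9 members with a ratio, at a limit of 2-fold. *KLF5* was 17.0-fold higher in PC3 than in LNCaP control (log2 ratio 4.09 ± 0.13), *KLF10* 7.05-fold (2.82 ± 0.13), *KLF6* 5.53-fold (2.47 ± 0.13) and *KLF4* 2.01-fold (1.01 ± 0.20). The dimmer *KLF6* probe gave -0.19, not well above background in PC3 control, and the median over both *KLF6* probes was 1.14. *KLF9* was at least 63.4-fold lower in PC3. Ratios of 0.75 ± 0.14 for *KLF11*, 0.39 ± 0.18 for *KLF2*, 0.29 ± 0.12 for *KLF13* and 0.20 ± 0.15 for *KLF3* did not reach the limit. Of 15237 genes, 20.6% were higher in PC3 and 19.0% lower. *KLF4* stood just inside the limit and fell short of it with the 50th percentile, at 0.57. The all-gene split of 3139 higher and 2897 lower became 2257 and 4737 with the 50th percentile and 4873 and 1404 with spike-in scaling, and the members' split of 4 higher and 1 lower became 3 and 1, and 5 and 1.

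Among 16 other KLF and SP family genes, 11 had a ratio in PC3 after ATO and 12 in LNCaP. *SP9* (log2 ratio 1.24) and *KLF12* (0.59) were higher in PC3 and *SP4* (-0.79) and *SP5* (-0.67) lower, beside 8.2% and 10.3% of all genes, and 0 were called in LNCaP. Each of these 4 calls was lost under some alternative: *SP9* was at 0.50 and *KLF12* at -0.16 with spike-in scaling, *SP4* at -0.49 with normexp and *SP5* at -0.48 with the 50th percentile. Their medians were 0.04 in PC3 and -0.02 in LNCaP. The second probe of *SP9* and that of *KLF12* were not well above background on the PC3 arrays. *KLF8* and *KLF14* were not well above background on any array. *KLF12*, a CtBP-binding repressor like *KLF3*, had a signal of 716 in PC3 control and 1041 in PC3 ATO and was not well above background in LNCaP.

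The kinase pathway upstream of *KLF2* in endothelium was measured at its own transcripts, which do not show its activity. Of its 8 genes 0 were called higher in PC3 and 2 lower, *MAP2K5*, which encodes MEK5 (-0.77), and *MEF2C* (-0.60), beside 8.2% and 10.3% of all genes. With the 50th percentile and with normexp 1 gene was higher and 0 lower. Spike-in scaling gave 0 higher and 5 lower, beside 130 genes higher and 9420 lower of 13815. Without genes lying in bright surroundings 0 were higher and 1 was lower, *MAP2K5* dropping out. *MAPK7*, which encodes ERK5, had a ratio of 0.50 in PC3 and -0.08 in LNCaP. *MEF2A* (0.29 and 0.35) and *MEF2D* (0.09 and 0.11), whose products bind the consensus marked in the *KLF2* sequence, did not reach the limit in PC3 or LNCaP.

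Of 6 genes reported here that KLF2 or KLF4 raise in endothelium or lymphocytes, 3 had a ratio in PC3, with 2 called higher and 1 lower, beside 8.2% and 10.3% of all genes. *THBD*, the thrombin receptor thrombomodulin, rose from 164 to 555 (log2 ratio 1.81). *ASS1*, an enzyme of arginine synthesis, rose from 1673 to 2920 (0.85, and 0.80 by its second probe; 0.11 with spike-in scaling, short of the limit). *S1PR1*, a lymphocyte egress receptor, fell from 262 to 61.0 (-2.05). *NOS3*, *PTGDS* and *TEK* were not well above background in PC3. In LNCaP *NOS3* rose from 60.6 to 106.6 (0.71, 0.38 with normexp), 1 of the 2 genes with a ratio there, beside 2.77% of all genes called higher.

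Of 6 genes reported here that KLF2 lowers in endothelium, 2 could be measured in PC3, and 2 of 2 fell. *F3*, which encodes tissue factor, fell from 640 to 77.6 (log2 ratio -3.00). *EDN1*, the vasoconstrictor endothelin, fell from 186.2 to 99.7 (-0.85, and a bound of -1.32 by its second probe). *CCL2*, *VCAM1*, *SELE* and *KDR* were not well above background on any array, and in LNCaP 0 of the 6 had a ratio. Across the array 10.3% of genes fell past the limit in PC3. With normexp 1 of the 2 did, *EDN1* standing at -0.51.

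Endothelial and leukocyte markers were read as well, since these genes are known from those cells. The summed signal of *PECAM1*, *CDH5* and *VWF* was 394 in PC3 control and 446 in PC3 ATO, and 214 and 249.5 in LNCaP. *PECAM1* went from 147 to 389 in PC3 and *CDH5* from 235 to a value not well above background, and *VWF* was not well above background in PC3. The leukocyte markers *PTPRC*, *CD3E* and *CD14* were not well above background in either PC3 array, with a summed signal of 48.9 and 61.2. In LNCaP their sum was 245 in control and 50.8 after ATO, *PTPRC* being well above background in control (215) and not after ATO. The part of the markers in the *KLF2* result was not tested.

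**Figure D5:**
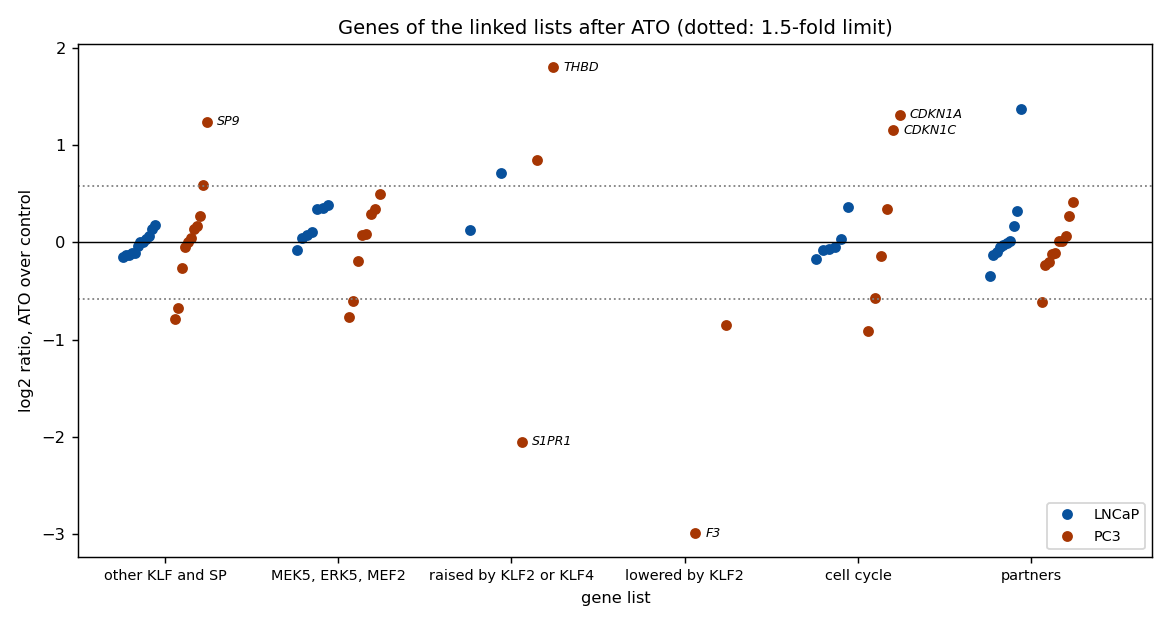
Log2 ratio of ATO over control for genes of the 6 linked lists in LNCaP (blue) and PC3 (brown), 1 dot a gene with a ratio, bounds included, and names for PC3 ratios of at least 1 in size. In PC3 *F3* is at -3.00, *S1PR1* at -2.05, *THBD* at 1.81 and *CDKN1A* at 1.31 (0.57 with spike-in scaling, short of the limit).

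Cell cycle genes under KLF4, KLF5 or KLF6 had 2 of 6 called higher and 1 lower in PC3, where 8.2% and 10.3% of all genes were. *CDKN1A*, the cyclin-dependent kinase inhibitor p21 and a known target of KLF4 and KLF6, rose from 354 to 853 (log2 ratio 1.31). *CDKN1C*, the related inhibitor p57, rose from 1073 to 2311 (1.16). Cyclin E1, *CCNE1*, fell from 1251 to 644 (-0.91), and cyclin D1, *CCND1*, went from 12820 to 8311 (-0.58, just short of the limit). With spike-in scaling neither inhibitor reached the limit (0.57 and 0.41). In LNCaP 0 of 6 were called. Among 10 partners and corepressors, 0 were called higher and 1 lower in PC3, beside 8.2% and 10.3% of all genes. In LNCaP 1 was called higher and 0 lower, beside 2.77% and 1.99%. *WWP1*, a ubiquitin ligase that acts on KLF2 and KLF5, fell in PC3 (-0.61, -0.41 with the 50th percentile). *KAT2B*, an acetyltransferase, rose in LNCaP from 59.0 to 163.7 (1.37). Both drop out without genes lying in bright surroundings. The corepressor genes *CTBP1*, *CTBP2*, *SIN3A*, *HDAC1* and *HDAC2* did not reach the limit in either line by their brightest probes, though a dimmer *CTBP1* probe was at -0.76 in LNCaP.

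The median PC3 ratio was 0.08 for the kinase pathway list, 0.10 for the cell cycle list and -0.05 for the partners, beside -0.006 for all genes. The medians in LNCaP were 0.11, -0.06 and -0.02. No median is given for the genes raised or lowered by KLF2, of which at most 3 had a ratio. With spike-in scaling the PC3 medians of these 3 lists were -0.66, -0.64 and -0.79, beside the all-gene median of -0.75, and the LNCaP medians were -0.21, -0.38 and -0.34, beside -0.30.

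The 5 genes closest to *KLF2* in pattern with the KLF members left out, by the distance between their centred log2 values over the 4 arrays among 11016 genes, were *NDRG1* (distance 1.78), *WFDC3* (2.09), *GPX2* (2.19), *LYPD3* (2.21) and *LFNG* (2.27). *NDRG1*, a gene of the hypoxia and stress response, had signals of 2792 without and 3025 with ATO in LNCaP cells, and 7212 without and 32640 with ATO in PC3 cells. None came close to the *KLF2* change, the PC3 ratios of the 5 running from 1.51 to 2.23. All 5 were also further apart between LNCaP and PC3 control than *KLF2*, which had signals of 151.5 and 235. Those control signals were 168.5 and 774 for *WFDC3*, 64.2 and 267 for *GPX2*, 70.6 and 384 for *LYPD3*, and 157 and 554.5 for *LFNG*. Among the members *KLF6* was nearest at 2.20, closer than *LYPD3* and *LFNG*, followed by *KLF13* at 2.99.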

How the data were processed

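Per the labels, total RNA of 1 sample a group was copied into labelled cRNA and read on 1-colour arrays. The deposited scanner files hold processed intensity values, background-corrected by the authors with Agilent Feature Extraction 9.5.3.1 per the file headers, with 1 row a spot; the deposited series table holds the authors' ratio of that intensity to each array's 75th percentile, with a lowest value of 0.03, and was an alternative. Probe coordinates are hg18 from the files; promoter sequences are RefSeq's (GRCh38.p14), and 8 of 10 members had an entry that was used. Spots with an outlier call were left out, log2 intensities of a probe's spots averaged, and the array's 75th percentile over probes subtracted. A gene took its brightest probe with values on all 4 arrays. Probes well above background on 1 of 2 arrays gave a bound, on neither no ratio. Calls used 1.5-fold after ATO and 2-fold between lines. limma 3.58.1 (R 4.3.3) tested ATO over both lines, with Benjamini-Hochberg adjustment over all genes well above background on both control or both ATO arrays. Calls and fit were run on simulated data, the fit only with changes that were equal in both lines. How the fit does with a change in 1 line was not tested. The members and lists were chosen with earlier results of these data known. All members, list genes past the limit (at most 8 a list) and the 5 genes nearest *KLF2* were named. Normexp (offset 50), other scalings, filters and limits were alternatives. Some marker and list genes are not reported here and are left out of the lists' counts. Proteins were not analysed here.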

Additional observations from a re-analysis of the deposited data

Results flagged for a closer look

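*KLF4*, *KLF10* and *KLF11* had ratios of opposite sign in the lines after ATO, of which *KLF4* in PC3 alone passed the 1.5-fold limit. The difference was not tested, since each line had 1 array a condition. For *KLF4* the PC3 log2 ratio exceeded the LNCaP ratio by 0.87 (0.65 against -0.22), and over 11 alternatives the difference ran from 0.44 to 1.08. For *KLF10* the difference was -0.68 (-0.30 in PC3 against 0.38 in LNCaP), and it ran from -1.11 to -0.36. For *KLF11* it was -0.34 (-0.15 against 0.18), and it ran from -0.76 to -0.13. The technical SD of these differences was 0.31, 0.19 and 0.21. With spike-in scaling *KLF4* and *KLF11* were below 0 in both lines, and with the 50th percentile *KLF11* was above 0 in both, as was *KLF4* with normexp.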

How the results depend on the processing

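Of 37 recomputed counts of called members, 31 were within 1.5 times the value reported. These include the PC3 count with spike-in scaling, where 5 higher and 0 lower became 3 higher and 2 lower, and 4 limma counts that were 0 against 0. The LNCaP count of 1 became 0 with quantile scaling, with spike-in scaling and at a 2-fold limit. It was also 0 without genes lying in bright surroundings, where *KLF3* and *KLF2* drop out. Without a filter on dim probes it became 2 of 10 (*KLF3* and *KLF7*), beside 10381 genes higher and 1303 lower of 27224. The PC3 count of 5 became 3 without genes lying in bright surroundings, since *KLF2* and *KLF13* drop out. Beside it stood 788 genes higher and 788 lower of 10131. Of 298 recomputed ratios of single members, 238 kept within their technical SD or, by limma, their side of the threshold, 59 moved further and 1 changed the sign of a called value, *KLF4* in PC3 at -0.095 with spike-in scaling. The moves came from spike-in scaling (26), the 50th percentile (17), normexp (12), the median over probes (3) and no filter (1). Many of the 238 could not move. For a member with 1 probe, well above background on both arrays, the filters and the median over probes return the same number. The limma ratios counted as kept because no member passed under any setting and no sign changed. Neither spike-in scaling nor the percentile uses a count of cells, so neither can show the amount of RNA per cell. By limma 5 genes passed with the 50th percentile and 0 under the other settings, and the members passing were 0 throughout. Values of *KLF7* and of the dim *KLF6* probe are limited by signal over background.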
